A study of Mus musculus with 4 samples.

Results

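Genes for ATP-dependent chromatin remodelers were examined in RNA-seq counts of mouse germinal vesicle (GV) oocytes, which are arrested in meiotic prophase before maturation. The genes were chosen by a pattern of symbols, with the rise of Smarca5 already known. They comprised every symbol beginning with Smarc or Ino80, Chd1 to Chd9, Arid1a, Arid1b, Arid2, Bptf, Baz1a, Baz1b, Baz2a and Baz2b, 38 of the 53677 symbols counted. Of these, 35 are protein-coding genes, and the others are the pseudogenes Smarca5-ps and Smarce1-ps1 and the antisense gene Ino80dos. All 38 had at least 1 count, 37 passed the low-count filter and were tested, and 33 had a mean of at least 1 CPM, that is, counts scaled by the summed counts of the tested genes and the TMM factor of the library. There were 2 groups of 2 libraries, Ell3 knockdown oocytes (Ell3 KD) and control oocytes (Ctrl), each library made from 5 pooled oocytes by Smart-seq2, which copies whole transcripts from minute amounts of RNA. In both groups PMSG, a gonadotropin that drives follicle growth, had been given at 7.5 IU 48 h before collection. Mouse strain and age, how the knockdown was made, what the control oocytes received, and whether the 2 libraries of each group represent different animals are not given in the sources used here, and p-values therefore rest on a library-to-library spread that may be technical.

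Remodelers use ATP to slide, evict or exchange nucleosomes and fall into families by their ATPase. SWI/SNF (BAF) complexes open chromatin at enhancers and promoters. ISWI enzymes space nucleosomes into regular arrays, CHD proteins join remodeling to the reading of histone marks or, in NuRD, to deacetylation, and the INO80 family exchanges histone variants and slides nucleosomes. Oocytes store remodelers for the embryo, and the maternal SWI/SNF ATPase Smarca4 is known for its role in activating the embryonic genome. Ell3, the targeted gene, encodes an elongation factor of RNA polymerase II.

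Library totals were 89632815 and 65722415 counts in Ell3 KD and 45131278 and 48669267 in Ctrl, so that depth did not overlap between the groups. A gene without a count lay below 0.0339 and 0.0464 CPM in Ell3 KD and below 0.0657 and 0.0608 CPM in Ctrl, taking 3 counts as the limit, which covers counting error only. Ell3 had 2.88 and 2.80 CPM in Ell3 KD and 8.12 and 9.79 CPM in Ctrl, a log2 change of -1.66 ± 0.14 (SE; edgeR adjusted p = 6.04e-10), although exons of Serinc4 cover 65.6% of its exon length. The 12 oocyte markers were all detected, with summed levels of 22674.9 and 22620.3 CPM in Ell3 KD and 23804.0 and 23257.6 CPM in Ctrl. Of these markers 2 rose and 5 fell, with log2 fold changes from -0.27 for Nobox to 0.49 for Dppa3. The 14 granulosa and cumulus markers summed to 57.4 and 60.6 CPM in Ell3 KD and to 60.7 and 57.8 CPM in Ctrl, and 7 of them averaged under 1 CPM. Of these, Foxl2 and Amh had no count in Ctrl and at most 9 counts in Ell3 KD, while Gja1 (1.17), Inha (1.16) and Ptgs2 (2.79) rose and Nr5a2 (-0.24) fell, all as log2 fold changes. The part of these cells in the results that follow was not tested. With all libraries thinned to equal totals the log2 fold change of Smarca5 was 1.70, and 4 remodeler genes were called higher and 9 lower, against 6 and 9 without thinning. Sums of the 10 theca and stroma markers were 5.40 and 5.57 CPM in Ell3 KD against 6.15 and 6.16 CPM in Ctrl, although the theca and stroma marker Dcn rose (1.12), and 8 of the 10 blood cell markers had no count in any library, while the blood cell marker Cd68 fell (-1.16).

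The sequences that bear on the main result are those of Smarca5, which encodes the ISWI ATPase SNF2H, and of its close copies. Smarca5 lies at chr8:80698507-80739497, minus strand, in GRCm38, the assembly that mm10 names. Smarca5-ps is annotated as a transcribed processed pseudogene on chromosome 4 from 145464204 to 145467420. Over 3116 aligned bases its annotated transcript was 98.1% identical to that of Smarca5, with 60 differing bases. Of all stretches of 150 bases in the pseudogene, the length of the reads, 5.48% were identical to a stretch of Smarca5. The lines that follow show 100 bases from the coding part of the Smarca5 transcript (transcript positions 2095 to 2194) and the aligned bases of the pseudogene (1667 to 1766), the ungapped coding window with the most differences. Capitals mark the 6 positions that differ, by which reads of the genes can be told apart.
Smarca5: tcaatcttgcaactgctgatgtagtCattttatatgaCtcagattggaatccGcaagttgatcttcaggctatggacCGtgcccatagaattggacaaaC
Smarca5-ps: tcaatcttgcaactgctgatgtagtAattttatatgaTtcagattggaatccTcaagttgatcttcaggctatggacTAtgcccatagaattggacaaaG

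Mammals have a further ISWI ATPase gene, Smarca1, which encodes SNF2L. Its coding sequence was 75.1% identical to that of Smarca5 over 2862 aligned bases, and no stretch of 50 bases was shared between them, so that their reads are readily separated. Because the levels of these paralogs lay so far apart in the oocytes, their promoters are shown, each from 250 bases before to 50 bases after the start site, from RefSeq on GRCm38.p6. Capitals mark matches to any of the 4 motifs searched on both strands, which were the CCAAT box (CCAAT), the GC box (GGGCGG), the TATA box (TATAAA) and the E-box (CACGTG).
Smarca5, chr8:80739410-80739709, minus strand: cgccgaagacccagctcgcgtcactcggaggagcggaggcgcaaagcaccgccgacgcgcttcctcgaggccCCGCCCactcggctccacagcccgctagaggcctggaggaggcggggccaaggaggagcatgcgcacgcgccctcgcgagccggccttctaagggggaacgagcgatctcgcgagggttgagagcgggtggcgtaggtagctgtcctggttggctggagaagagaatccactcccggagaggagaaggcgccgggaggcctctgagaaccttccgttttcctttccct
Smarca1, chrX:47892564-47892863, minus strand: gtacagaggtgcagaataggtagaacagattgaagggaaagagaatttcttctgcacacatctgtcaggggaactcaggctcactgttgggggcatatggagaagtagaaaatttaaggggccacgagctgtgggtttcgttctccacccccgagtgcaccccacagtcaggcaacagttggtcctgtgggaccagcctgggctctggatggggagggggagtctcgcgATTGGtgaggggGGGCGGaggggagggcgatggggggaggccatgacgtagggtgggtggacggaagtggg

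The Smarca5 window held 32 CpG dinucleotides, more than 90.5% of the 32851 promoter windows of the table, and had a GC content of 67.7%. The Smarca1 window held 9, more than 54.2% of all windows, and had a GC content of 58.7%. A GC box was found in both, on the strand opposite to the printed one in Smarca5, and a CCAAT box on the opposite strand in Smarca1. Of all windows 35.7% held a GC box, 37.4% a CCAAT box, 13.6% a TATA box and 7.15% an E-box. Promoters were listed for 27 of the 38 genes, in 34 windows. Of these windows 82.4% held a GC box and 32.4% a CCAAT box, and their median was 26.5 CpG dinucleotides, against a median of 7.0 over all windows.

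Smarca5 was the member with the largest change at 5 CPM or more. It had 187.2 and 193.4 CPM in Ell3 KD and 56.7 and 60.8 CPM in Ctrl, from 16582 and 12505 counts and from 2593 and 3001 counts. Both Ell3 KD libraries lay above both Ctrl libraries by a wide margin, while the libraries of each group lay close together. The fold change was 3.24, a log2 change of 1.69 ± 0.04 (95% interval 1.61 to 1.78, with 1.01e-21 as the edgeR adjusted p). It was the 11th largest among the 2640 genes called higher at a mean of 5 CPM or more. Its rise was known when the genes were chosen, so the test is not independent evidence. In all, 51 of 9704 genes at that level changed at least 2-fold (0.526%), and Smarca5 was the one such gene among the 30 remodeler genes at that level. Its log2 fold change lay between 1.64 and 1.74 when any library was left out.

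**Figure D1:**
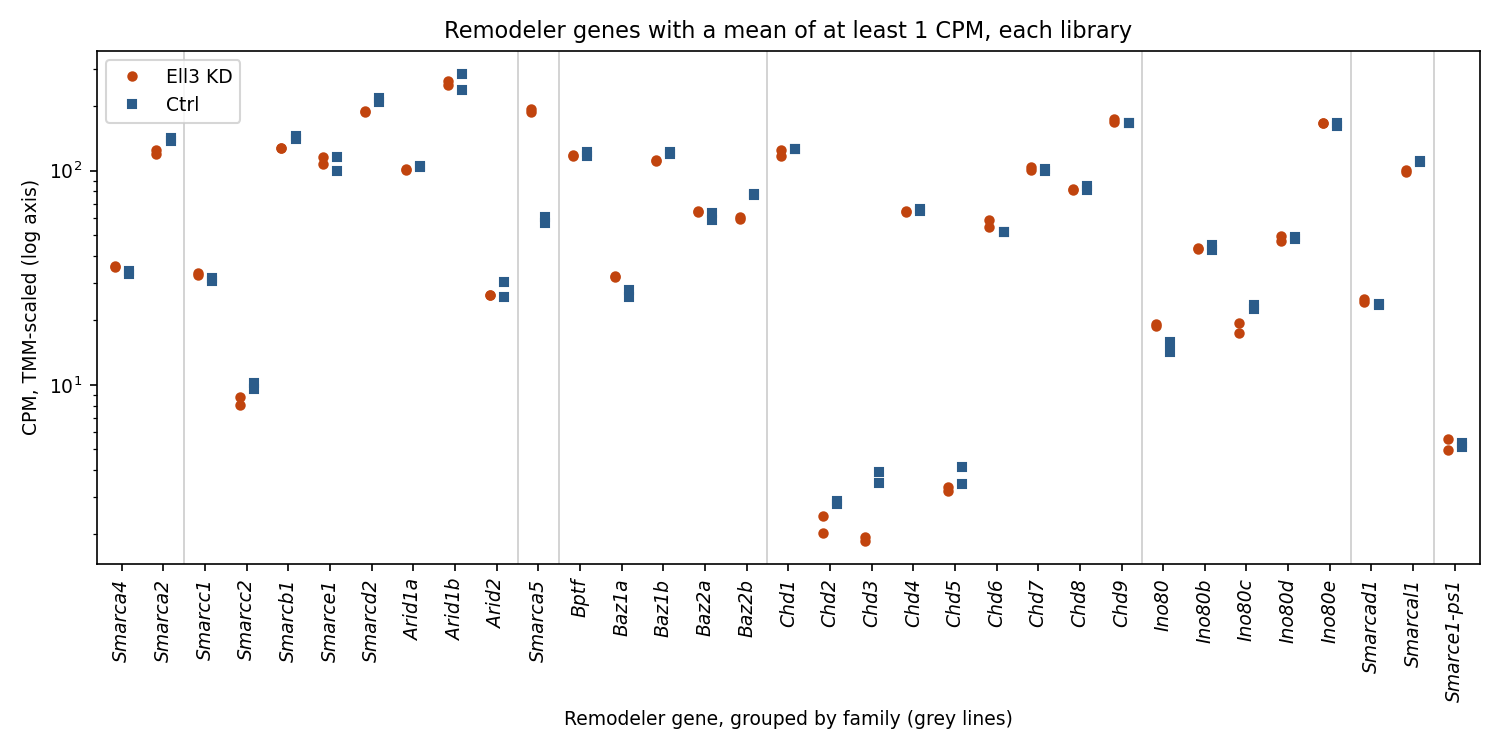
Level of each remodeler gene with a mean of at least 1 CPM, as CPM scaled by TMM factors (log axis), with 1 point per library, Ell3 KD as circles and Ctrl as squares. Smarca5 lies near 190 CPM in Ell3 KD and near 59 CPM in Ctrl, whereas the points of most other genes lie close together.

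Reads of Smarca5 could in part be counted for its copies. Smarca5-ps had 0.768 and 0.990 CPM in Ell3 KD and 0.372 and 0.304 CPM in Ctrl, from 68 and 64 counts and from 17 and 15 counts, so that the groups did not overlap. Its log2 fold change was 1.37 ± 0.41 (edgeR adjusted p = 0.00843), a call lost with DESeq2 and without Ell3 KD replicate 2 (adjusted p between 0.00383 and 0.115 over 12 alternatives). The pseudogene took 0.408% (95% Wilson interval 0.322 to 0.517) and 0.509% (0.399 to 0.650) of the summed counts of the pair in Ell3 KD, against 0.651% (0.407 to 1.04) and 0.497% (0.302 to 0.819) in Ctrl. These intervals overlap; they cover counting error alone, as PCR copies of a molecule could not be told from separate molecules. Whether the pseudogene counts are reads of Smarca5 was not tested. Smarca1 had 0 and 1 counts in Ell3 KD and 1 and 5 counts in Ctrl, below the limit of 3 counts in 3 of the 4 libraries, and was not tested. Exons of Smarca5 overlap the same-strand gene Gm45872 over 3.61% of their length, and Gm45872 had 3 and 2 counts in Ell3 KD and none in Ctrl.

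Scaled by the length of the longest annotated transcript, Smarca5 averaged 31.1 CPM per kb in Ell3 KD and 9.61 CPM per kb in Ctrl. Among the 35 protein-coding remodeler genes this was rank 4 in Ell3 KD and rank 18 in Ctrl. The same 3 genes stood at the top in both groups, in the same order. Smarcd2, a BAF60 subunit gene, averaged 69.0 CPM per kb in Ell3 KD and 77.8 in Ctrl, followed by Smarce1 (35.8 and 34.6 CPM per kb) and Ino80e (31.4 and 30.8 CPM per kb). Which isoforms the oocytes used was not tested, so these ranks depend on the annotated lengths. Exons of Ino80e overlap those of opposite-strand genes over 16.4% of their length, and whether reads of those genes add to its level was not tested.

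Smarca5 works with partner subunits that set where it acts, and their genes did not rise with it to a like extent. Baz1a, which encodes the ACF1 subunit of the ACF and CHRAC complexes, rose modestly. It had 32.1 and 32.0 CPM in Ell3 KD and 25.7 and 27.7 CPM in Ctrl, a log2 change of 0.26 ± 0.06 (edgeR adjusted p = 0.00116), without overlap between the groups. Baz2b, a close relative of the NoRC subunit gene Baz2a, fell to 59.3 and 61.0 CPM in Ell3 KD, against 77.6 and 77.4 CPM in Ctrl. This was a log2 change of -0.37 ± 0.04 (edgeR adjusted p = 2.91e-07), the smallest p among the remodeler genes after that of Smarca5.

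Baz1b, which encodes the WSTF subunit of the WICH complex, had 111.1 and 111.8 CPM in Ell3 KD and 119.2 and 122.0 CPM in Ctrl. It fell by 0.11 ± 0.04 on the log2 scale (in edgeR, adjusted p = 0.0172). Lists of lost calls from here on leave out losses under an assumed coefficient of variation, which is described after the members. The Baz1b call was lost with DESeq2 (adjusted p = 0.0614). It was also lost with a trend in transcript length and GC content taken out (edgeR adjusted p = 0.0957). The log2 fold change of Baz1b lay between -0.13 and -0.10 when any library was left out. Its call was lost without Ell3 KD replicate 1, Ell3 KD replicate 2 or Ctrl replicate 2. Baz2a, which encodes the NoRC subunit that silences ribosomal DNA, had 64.3 and 64.7 CPM in Ell3 KD and 58.8 and 63.3 CPM in Ctrl (log2 fold change 0.08 ± 0.05, edgeR adjusted p = 0.187), and was called higher with the length and GC trend removed (0.13, adjusted p = 0.0329). Bptf, the large subunit gene of NURF, had 117.2 and 118.3 CPM in Ell3 KD and 117.1 and 122.4 CPM in Ctrl, with overlapping groups (log2 fold change -0.02 ± 0.04, edgeR adjusted p = 0.638, 95% interval -0.10 to 0.05).

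Further ISWI partner genes outside the symbol pattern also moved little. Cecr2, which encodes the partner of the CERF complex, was abundant, with 464.8 and 473.7 CPM in Ell3 KD and 526.5 and 496.8 CPM in Ctrl, and fell by 0.12 ± 0.03 on the log2 scale (in edgeR, adjusted p = 0.00251). Rsf1, the partner gene of the RSF complex, had 6.75 and 8.04 CPM in Ell3 KD and 8.75 and 9.34 CPM in Ctrl. It fell by 0.30 ± 0.12 (edgeR adjusted p = 0.0394), a call lost with DESeq2, with counts thinned to equal totals, with the length and GC trend removed, without Ell3 KD replicate 1 and without Ctrl replicate 2 (adjusted p between 0.0172 and 0.776 over 13 alternatives). Rbbp7, a histone chaperone gene shared by NURF and NuRD, rose to 3917.7 and 4092.0 CPM in Ell3 KD, against 3659.0 and 3749.2 CPM in Ctrl (0.11 ± 0.03, edgeR adjusted p = 9.16e-04). Of the 6 ISWI companion genes 1 rose and 2 fell, beside 42.9% of all genes tested that were called in either direction.

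**Figure D2:**
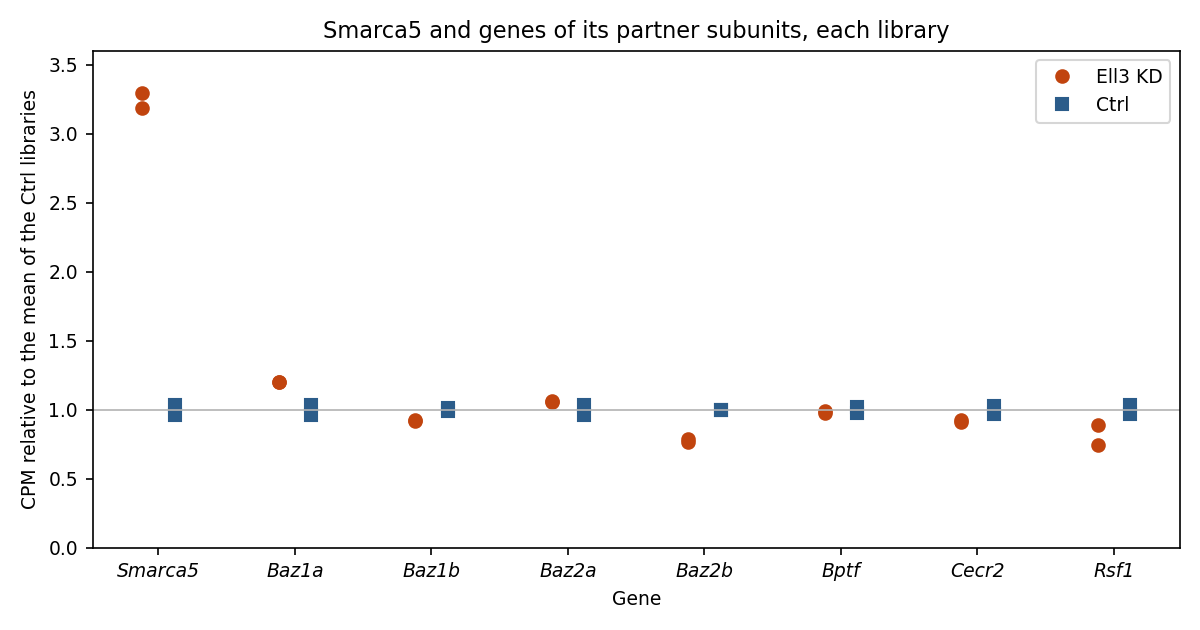
CPM of Smarca5 and of 7 partner subunit genes in each library, divided by the mean of the Ctrl libraries of the same gene, with Ell3 KD as circles and Ctrl as squares. Smarca5 stands above 3 in both Ell3 KD libraries. The partner genes lie nearer to 1 in both groups, with Baz1a above it and Baz2b and Rsf1 furthest below it in Ell3 KD.

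Over the whole set, 6 of the 37 tested genes rose and 9 fell, and 22 did not pass the test. The share called, 40.5%, was near the 42.9% of all 17879 genes tested (21.1% higher and 21.8% lower). The libraries of the groups did not overlap for 28 of the 37 genes, against 70.7% of all genes tested. Changes were small. The median absolute log2 fold change was 0.11 for the remodeler genes and 0.25 over all genes tested, and the medians of the signed values were -0.02 and -0.002. Restricted to genes at 5 CPM or more, the median absolute log2 fold change was 0.08 for the remodeler genes and 0.16 over all genes. At 5 CPM or more, 29 of 30 remodeler genes had a change smaller than 1.5-fold, as did 9351 of 9704 genes at that level. Among those 30 genes 4 rose and 7 fell, 11 in all, against 52.5% of all genes at that level called. CPM are relative to the rest of a library and do not show how much mRNA an oocyte held. In pooled oocytes, fewer oocytes with a transcript and less of it per oocyte cannot be told apart.

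**Figure D3:**
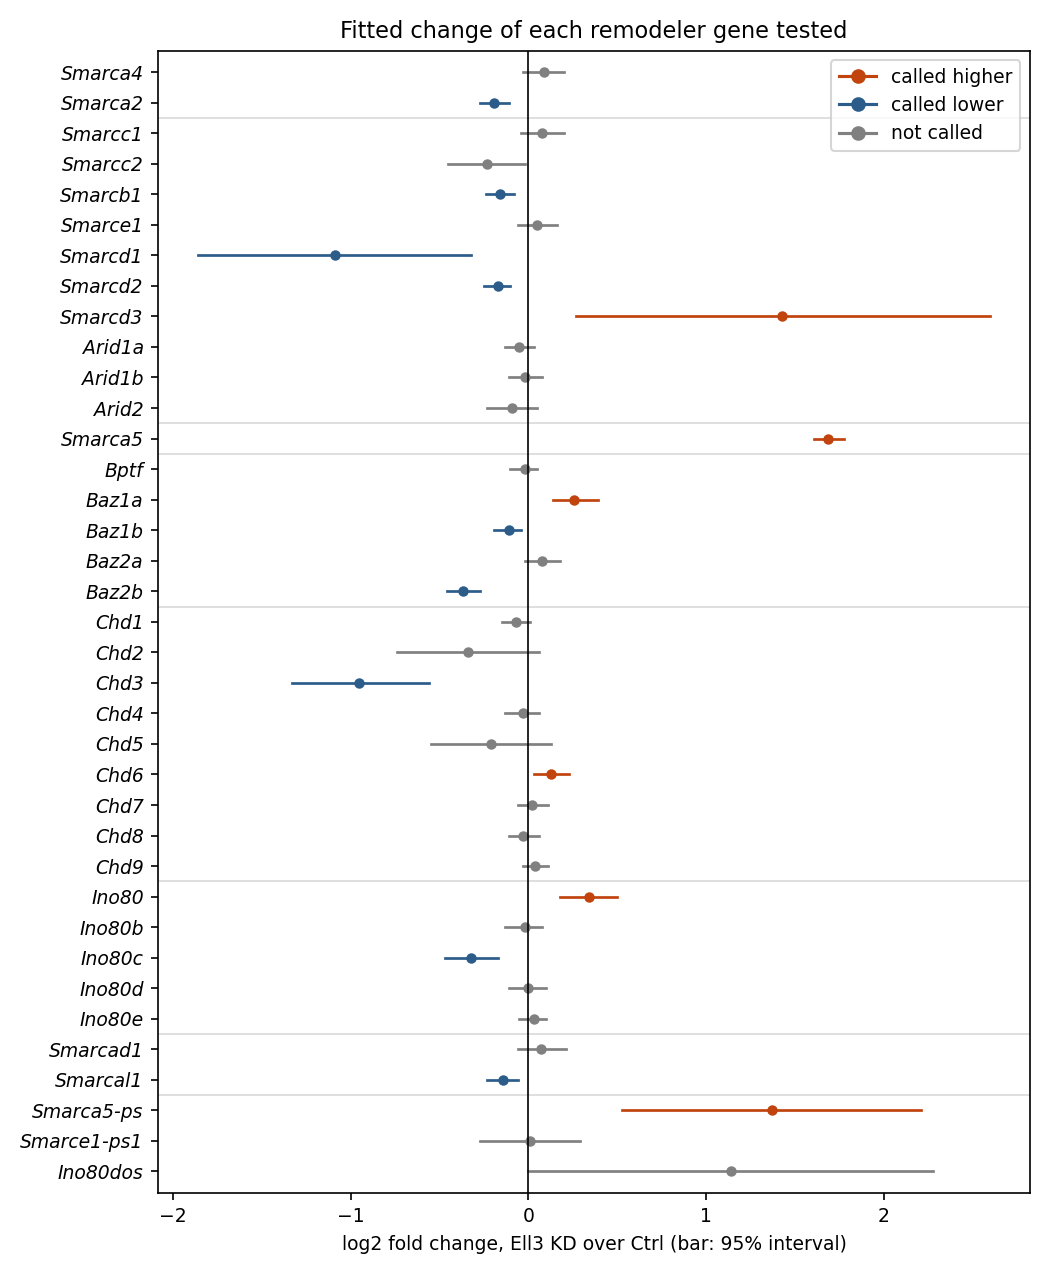
Fitted log2 fold change of the 37 remodeler genes tested, Ell3 KD over Ctrl, with 95% intervals from the edgeR fit. Smarca5 stands at 1.69 with a narrow interval, most genes lie near 0, and the wide intervals belong to genes under 5 CPM such as Smarcd1, Smarcd3 and Ino80dos.

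Of the 10 SWI/SNF genes of the symbol pattern at 5 CPM or more, Smarca2, Smarcb1 and Smarcd2 fell and none rose. Of the 13 further SWI/SNF genes at that level, described among the companion genes, 7 rose and 3 fell. Of all 9704 genes at that level 52.5% were called, 2640 higher and 2459 lower. Of the catalytic subunits, Smarca2 (BRM) fell to 119.9 and 125.5 CPM in Ell3 KD, against 138.0 and 141.9 CPM in Ctrl, a log2 change of -0.19 ± 0.04 (edgeR adjusted p = 2.51e-04). Smarca4 (BRG1) had 35.5 and 35.7 CPM in Ell3 KD and 34.1 and 33.0 CPM in Ctrl, and its difference of 0.09 ± 0.06 on the log2 scale missed the threshold (adjusted p = 0.227 in edgeR) but was called with the length and GC trend removed (0.16, adjusted p = 0.0235). Per length, Smarca2 was the more abundant in both groups, at 20.7 CPM per kb in Ell3 KD and 23.6 in Ctrl, against 5.59 and 5.26 for Smarca4.

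Among the core subunits, Smarcb1, which encodes SNF5, fell by 0.16 ± 0.04 on the log2 scale (in edgeR, adjusted p = 0.00106), with 127.6 and 128.3 CPM in Ell3 KD and 145.8 and 140.2 CPM in Ctrl. Smarcd2 fell by 0.17 ± 0.03 (edgeR adjusted p = 2.21e-04), with 190.6 and 188.4 CPM in Ell3 KD and 209.8 and 217.9 CPM in Ctrl. The groups stood apart in both genes. Smarcc1, one of the paired scaffold genes, had 33.2 and 32.5 CPM in Ell3 KD and 30.4 and 31.6 CPM in Ctrl, with a log2 change of 0.08 ± 0.06 (edgeR adjusted p = 0.267). Its partner Smarcc2 had 8.78 and 8.01 CPM in Ell3 KD and 10.2 and 9.60 CPM in Ctrl, with -0.23 ± 0.10 (edgeR adjusted p = 0.0749). Neither passed the test, although the groups did not overlap in either gene. Smarce1, the HMG-box subunit gene, had 107.0 and 116.4 CPM in Ell3 KD and 99.6 and 115.9 CPM in Ctrl, with overlapping groups (0.05 ± 0.05, edgeR adjusted p = 0.456), and was called higher without Ctrl replicate 2 (0.16).

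The remaining BAF60 genes had few counts. Smarcd1 had 35 and 40 counts in Ell3 KD and 54 and 47 counts in Ctrl, 0.395 and 0.619 CPM against 1.18 and 0.952 CPM. It fell by 1.09 ± 0.37 on the log2 scale (in edgeR, adjusted p = 0.0206), a call lost with DESeq2, without Ell3 KD replicate 1 and without Ctrl replicate 1 (adjusted p between 0.0136 and 0.200 over 12 alternatives). Smarcd3 had 49 and 23 counts in Ell3 KD and 8 and 8 counts in Ctrl and rose by 1.43 ± 0.57 (edgeR adjusted p = 0.0423). That call held in 4 of 12 alternatives and was lost when any library was left out (adjusted p between 0.0239 and 0.424 over 12 alternatives). Exons of Smarcd3 overlap opposite-strand genes, chiefly Chpf2, over 48.2% of their length, and Chpf2 had at most 1 count in any library. Smarcd2 supplied 99.5% and 99.5% of the summed counts of the 3 BAF60 genes in Ell3 KD and 99.4% and 99.5% in Ctrl.

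The genes for the large ARID subunits, which define the BAF and PBAF assemblies, did not pass the test. Arid1a had 101.1 and 101.5 CPM in Ell3 KD and 105.4 and 104.4 CPM in Ctrl (log2 fold change -0.05 ± 0.04, edgeR adjusted p = 0.309, 95% interval -0.13 to 0.03). Arid1b had 252.0 and 263.4 CPM in Ell3 KD and 237.8 and 282.8 CPM in Ctrl (-0.02 ± 0.05, edgeR adjusted p = 0.828), so that its Ell3 KD libraries lay between the Ctrl libraries. Without Ctrl replicate 1 Arid1b was called lower and without Ctrl replicate 2 higher (log2 fold changes of -0.14 and 0.11; adjusted p between 0.00207 and 0.997 over 13 alternatives). Arid2, of PBAF, had 26.4 and 26.4 CPM in Ell3 KD and 25.8 and 30.3 CPM in Ctrl (-0.09 ± 0.07, edgeR adjusted p = 0.318), and was called lower without Ctrl replicate 1 (-0.20).

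Shares within paralog groups do not depend on the scaling between libraries and are given as a description, since 2 libraries against 2 allow no exact permutation p below 0.333. Smarca2 took 77.2% and 77.8% of the summed Smarca2 and Smarca4 counts in Ell3 KD, against 80.2% and 81.1% in Ctrl. Smarcc2 took 20.9% and 19.8% of the scaffold pair in Ell3 KD, against 25.1% and 23.3% in Ctrl. In both pairs the Ell3 KD libraries lay below the Ctrl libraries.
Baz1a took 22.4% and 22.3% of the summed Baz1a and Baz1b counts in Ell3 KD and 17.7% and 18.5% in Ctrl, and Baz2b took 48.0% and 48.5% of its pair with Baz2a in Ell3 KD and 56.9% and 55.0% in Ctrl. The share of Arid1b in its pair with Arid1a overlapped between the groups, at 71.4% and 72.2% in Ell3 KD and 69.3% and 73.0% in Ctrl.

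**Figure D4:**
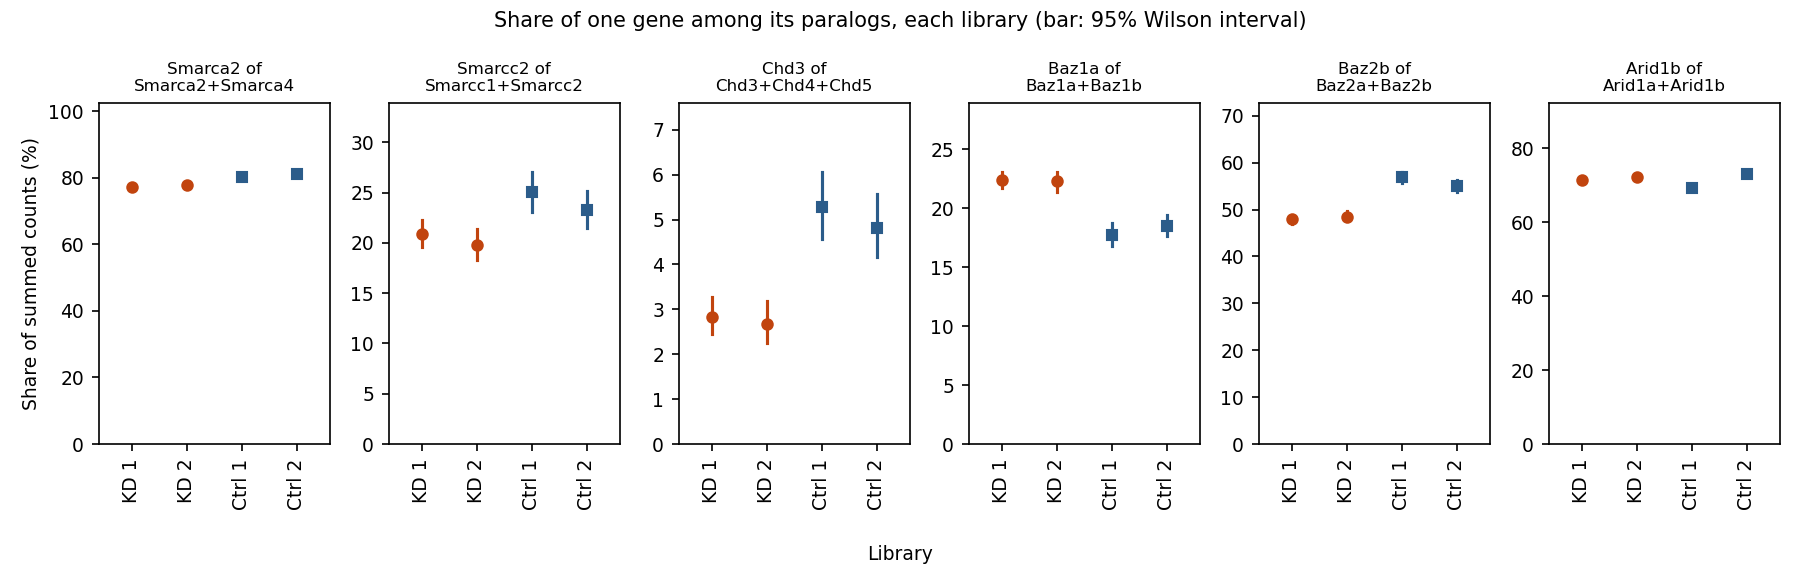
Share of 1 gene in the summed counts of its paralog group in each library, in percent, with 95% Wilson intervals that cover counting error only, Ell3 KD as circles and Ctrl as squares. The shares of Smarca2, Smarcc2, Chd3 and Baz2b are lower and that of Baz1a is higher in both Ell3 KD libraries, and that of Arid1b overlaps between the groups.

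In the CHD family 1 of 9 genes was called higher and 1 lower, 22.2% against 42.9% of all genes tested. Chd3, which encodes the Mi-2alpha ATPase of NuRD, fell to 1.95 and 1.87 CPM in Ell3 KD, against 3.90 and 3.48 CPM in Ctrl, from 173 and 121 counts and from 178 and 172 counts. Its log2 change was -0.95 ± 0.19 (95% interval -1.33 to -0.56; edgeR adjusted p = 1.92e-04). Chd3 took 2.83% (95% Wilson interval 2.45 to 3.28) and 2.68% (2.25 to 3.19) of the summed Chd3, Chd4 and Chd5 counts in Ell3 KD, against 5.27% (4.57 to 6.07) and 4.82% (4.16 to 5.57) in Ctrl. Chd4, which encodes Mi-2beta and supplied most NuRD ATPase counts in every library, had 63.8 and 64.6 CPM in Ell3 KD and 66.6 and 64.7 CPM in Ctrl (-0.03 ± 0.05, edgeR adjusted p = 0.596, 95% interval -0.13 to 0.06).

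Chd5, the third NuRD ATPase gene, had 3.19 and 3.33 CPM in Ell3 KD and 3.44 and 4.11 CPM in Ctrl (-0.21 ± 0.17, edgeR adjusted p = 0.313). Chd6 had 54.8 and 58.9 CPM in Ell3 KD and 52.0 and 51.7 CPM in Ctrl and rose by 0.13 ± 0.05 (edgeR adjusted p = 0.0342). This call was lost with DESeq2, with counts thinned to equal totals, and without Ell3 KD replicate 2, Ctrl replicate 1 or Ctrl replicate 2 (adjusted p between 0.0183 and 0.950 over 13 alternatives). Chd1, whose protein reads methylated histone H3 at active promoters, had 117.1 and 124.3 CPM in Ell3 KD and 126.6 and 126.9 CPM in Ctrl (-0.07 ± 0.04, edgeR adjusted p = 0.144). Chd2, its close relative, had 2.03 and 2.44 CPM in Ell3 KD and 2.78 and 2.86 CPM in Ctrl (-0.34 ± 0.19, edgeR adjusted p = 0.164), and 19.3% of its exon length overlaps other annotated genes.

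The remaining CHD genes gave narrow intervals around 0. Chd7, the gene mutated in human CHARGE syndrome, had 104.3 and 100.3 CPM in Ell3 KD and 101.5 and 99.9 CPM in Ctrl, with a 95% interval of the log2 fold change of -0.06 to 0.11. Chd8, which encodes a repressor of beta-catenin targets, had 81.1 and 82.1 CPM in Ell3 KD and 84.5 and 81.6 CPM in Ctrl, with an interval of -0.11 to 0.06. Chd9 was the most abundant of the family in CPM, with 169.6 and 173.6 CPM in Ell3 KD and 166.7 and 167.7 CPM in Ctrl, and had an interval of -0.03 to 0.11. The groups overlapped for Chd7 and Chd8 and stood slightly apart for Chd9, and none of these genes passed the test, with edgeR adjusted p = 0.677, adjusted p = 0.649 and adjusted p = 0.416 for Chd7, Chd8 and Chd9.

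In the INO80 complex, the ATPase gene rose and a subunit gene fell. Ino80 had 19.3 and 18.8 CPM in Ell3 KD and 14.2 and 15.9 CPM in Ctrl, a log2 change of 0.34 ± 0.08 (edgeR adjusted p = 0.00111). Ino80c fell to 17.5 and 19.4 CPM in Ell3 KD, against 22.5 and 23.5 CPM in Ctrl, by 0.32 ± 0.07 on the log2 scale (in edgeR, adjusted p = 9.42e-04). The groups did not overlap in either gene.
Ino80b had 43.1 and 43.5 CPM in Ell3 KD and 42.8 and 45.2 CPM in Ctrl, and Ino80d had 49.8 and 47.1 CPM in Ell3 KD and 49.2 and 48.0 CPM in Ctrl. Ino80e had 167.1 and 167.5 CPM in Ell3 KD and 162.0 and 166.4 CPM in Ctrl. None of these subunit genes passed the test (edgeR adjusted p = 0.740, adjusted p = 0.981 and adjusted p = 0.576 for Ino80b, Ino80d and Ino80e), and their 95% intervals lay between -0.13 and 0.10. Ino80dos, a non-coding gene on the strand opposite to Ino80d, had 46 and 29 counts in Ell3 KD and 5 and 16 counts in Ctrl (log2 fold change 1.14 ± 0.56, edgeR adjusted p = 0.101), and was called higher without Ctrl replicate 2 (2.13). Exons of Ino80dos overlap those of Ino80d and Ndufs1 over 31.9% of their length, and how strand was handled is not known from the sources used here. Exons of Ino80e overlap the opposite-strand genes Doc2a and Hirip3 over 16.4% of their length. Hirip3 had 133.8 and 126.0 CPM in Ell3 KD and 112.1 and 108.2 CPM in Ctrl (0.24 ± 0.04, edgeR adjusted p = 3.01e-05). Whether its reads were counted for Ino80e was not tested.

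Of the other SNF2-type members, Smarcal1, which encodes a helicase that reanneals DNA at stalled replication forks, fell by 0.14 ± 0.04 on the log2 scale (in edgeR, adjusted p = 0.00456). It had 101.3 and 98.2 CPM in Ell3 KD and 111.2 and 109.3 CPM in Ctrl, and the call was lost without Ell3 KD replicate 2 (adjusted p between 0.00171 and 0.941 over 13 alternatives). Smarcad1, a remodeler gene linked to heterochromatin upkeep and DNA end resection, had 25.2 and 24.4 CPM in Ell3 KD and 23.8 and 23.5 CPM in Ctrl (0.07 ± 0.07, edgeR adjusted p = 0.396). The pseudogene Smarce1-ps1, 98.3% identical to Smarce1 over its 1077 bases, had 5.58 and 4.95 CPM in Ell3 KD and 5.36 and 5.11 CPM in Ctrl (0.01 ± 0.14, edgeR adjusted p = 0.953). It took 4.95% and 4.08% of the summed counts of the pair in Ell3 KD and 5.11% and 4.22% in Ctrl, and 27.6% of its stretches of 150 bases are identical to Smarce1, so reads of the pair cannot be assigned with certainty.

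The small changes rest on libraries that varied little, with a common biological coefficient of variation of 0.0421. Under an assumed value of 0.2, Smarca5, Smarca5-ps and Smarcd3 were called higher and Chd3 and Smarcd1 lower, and none of the other remodeler genes were called, against 11% of all genes tested under that setting. The assumed spread was not wider for every gene. Standard errors went from 0.57 to 0.47 for Smarcd3, from 0.37 to 0.36 for Smarcd1 and from 0.41 to 0.40 for Smarca5-ps. They rose from 0.04 to 0.30 for Smarca5 and from 0.19 to 0.31 for Chd3.

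Genes for subunits of the same complexes that the symbol pattern does not cover went both ways. Of 75 such companion genes in the files, 71 were tested, of which 20 rose and 16 fell, 50.7% against 42.9% of all genes tested, with a median log2 fold change of 0.04. At 5 CPM or more 32 of 61 were called, against 52.5% of all genes at that level. By list, 8 rose and 3 fell of 16 SWI/SNF companions tested, 1 rose and 2 fell of 10 of NuRD and ChAHP, 8 rose and 5 fell of 25 of INO80, SRCAP and TIP60-p400, and 2 rose and 4 fell of 14 other SNF2-type ATPases.

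Among SWI/SNF companions, the paralogs Dpf2 and Dpf3, which read histone marks, went opposite ways. Their paralog Dpf1, at a mean of 2.88 CPM, was not called (log2 fold change 0.11 ± 0.19, edgeR adjusted p = 0.682). Dpf2 fell to 33.2 and 33.8 CPM in Ell3 KD, against 48.8 and 46.2 CPM in Ctrl (log2 fold change -0.50 ± 0.05, edgeR adjusted p = 4.45e-08). Dpf3 rose to 31.2 and 32.5 CPM in Ell3 KD, against 26.1 and 26.0 CPM in Ctrl (0.29 ± 0.06, edgeR adjusted p = 4.26e-04). Bicra, the defining subunit gene of the non-canonical BAF complex, rose by 0.45 ± 0.10 (edgeR adjusted p = 5.19e-04), with 12.1 and 11.8 CPM in Ell3 KD and 8.49 and 9.0 CPM in Ctrl. Actb (0.11) and Bcl7b (0.13) rose and Actl6a (-0.12) and Brd7 (-0.12) fell by small log2 fold changes, with the highest edgeR adjusted p = 0.0245. The Bcl7b call was lost without Ell3 KD replicate 2. The Actl6a call was lost with DESeq2 and without Ell3 KD replicate 1 or Ctrl replicate 1. The Brd7 call was lost with DESeq2, with no low-count filter, and without Ell3 KD replicate 1, Ell3 KD replicate 2 or Ctrl replicate 1 (adjusted p between 0.0148 and 0.957 over 13 alternatives).

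In the INO80, SRCAP and TIP60-p400 list, Trrap, the scaffold gene of histone acetyltransferase complexes, fell to 16.4 and 16.6 CPM in Ell3 KD, against 25.1 and 27.2 CPM in Ctrl (-0.67 ± 0.07, edgeR adjusted p = 3.45e-08). Of the TIP60-p400 assembly Ep400, its ATPase gene, fell by 0.24 ± 0.04 and Brd8 by 0.29 ± 0.05. Ruvbl1, a AAA+ ATPase gene of several complexes, fell by 0.34 ± 0.05, whereas Mbtd1 rose by 0.26 ± 0.04. Ing3 (0.24 ± 0.05, edgeR adjusted p = 1.13e-04) and Meaf6 (0.11 ± 0.04, edgeR adjusted p = 0.0476) of that assembly rose too. Its genes Kat5, Dmap1, Epc1, Epc2, Yeats4 and Morf4l1 were not called. Among INO80 subunit genes, Actr5, which encodes an actin-related protein, had 4.71 and 4.69 CPM in Ell3 KD and 2.39 and 2.49 CPM in Ctrl (0.94 ± 0.16, edgeR adjusted p = 4.00e-05), and Nfrkb, a further subunit gene, had 193.3 and 190.9 CPM in Ell3 KD and 150.6 and 146.5 CPM in Ctrl (0.37 ± 0.04, edgeR adjusted p = 6.56e-09). Vps72, a histone H2A.Z chaperone gene, rose by 0.20 ± 0.03. For Trrap, Ep400, Brd8, Ruvbl1, Mbtd1, Actr5, Nfrkb and Vps72 the highest edgeR adjusted p was 6.40e-05.

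Among NuRD companions, Mta2 fell to 0.835 and 0.944 CPM in Ell3 KD, against 1.82 and 2.13 CPM in Ctrl (-1.15 ± 0.27, edgeR adjusted p = 9.77e-04), Hdac2 fell by 0.10 ± 0.04 (edgeR adjusted p = 0.0444) and Gatad2b rose by 0.16 ± 0.04 (edgeR adjusted p = 0.00143). The Hdac2 call was kept with limma-voom, with the stricter low-count filter, with the replicate block and without Ctrl replicate 2. It was lost in the other alternatives. Adnp of ChAHP was listed at 4 and 0 counts in Ell3 KD and at 0 in both Ctrl libraries.
Among other SNF2-type ATPases, Atrx, which deposits histone H3.3 with DAXX, rose to 212.2 and 216.1 CPM in Ell3 KD, against 178.6 and 179.8 CPM in Ctrl (0.26 ± 0.03, edgeR adjusted p = 1.26e-06), and Rad54l2 fell by 0.72 ± 0.14 (edgeR adjusted p = 2.58e-04). Hells, which promotes DNA methylation at repeats, fell by 0.13 ± 0.04 (edgeR adjusted p = 0.00404), a call lost with the length and GC trend removed and without Ctrl replicate 2 (adjusted p between 1.83e-04 and 0.950). Ercc6 (-0.28) and Btaf1 (-0.15) fell and Shprh (0.16) rose, with the highest edgeR adjusted p = 0.0460. These calls held in 8, 4 and 9 of 13 alternatives for Ercc6, Btaf1 and Shprh.

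**Figure D5:**
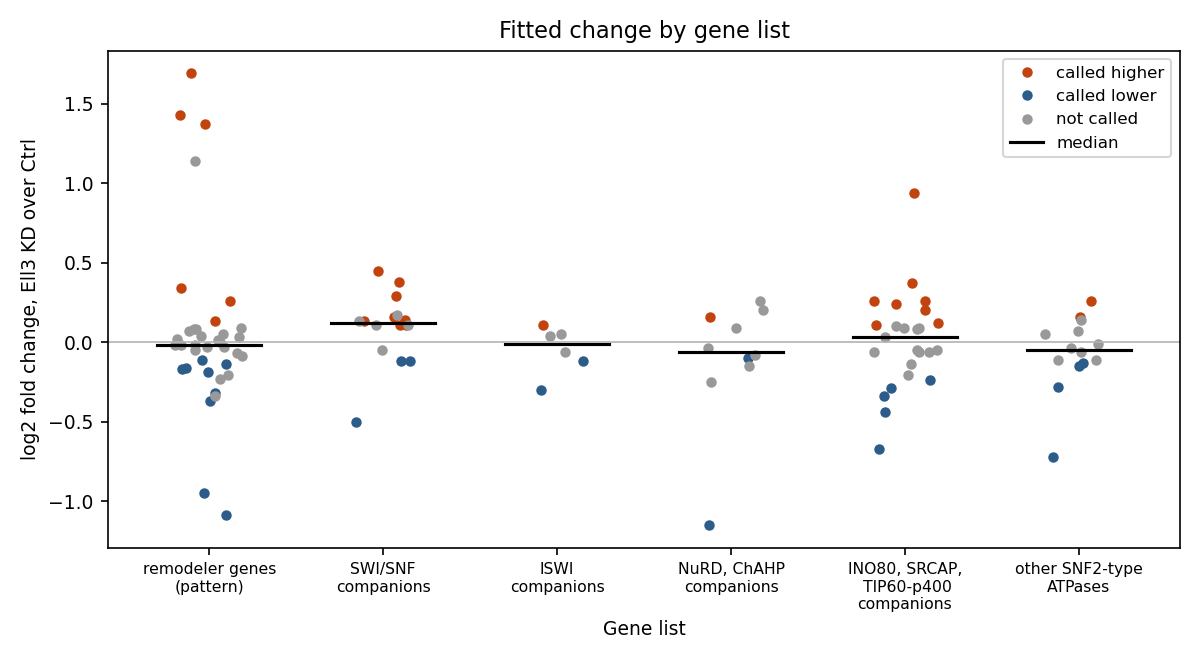
Fitted log2 fold change, Ell3 KD over Ctrl, of each tested remodeler gene and of the companion genes by list, with 1 point per gene colored by its call and a black line at the median. The medians lie between -0.06 and 0.12, and Smarca5 is the highest point of the plot at 1.69.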

How the data were processed

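The deposited values are raw counts per gene symbol in 4 mouse GV oocyte libraries. The tools named per the submitters' processing notes are HISAT2 2.2.1.0, featureCounts without a version, and FastQC 0.11.5, and the build is mm10. The annotation, strand setting and handling of multiply mapped reads are not given in the sources used here. Groups and replicate numbers came from the sample titles. Tests on the counts used edgeR 4.0.16 under R 4.3.3 (filterByExpr, TMM, glmQLFit, glmQLFTest, two-sided, no covariates), adjusted by Benjamini-Hochberg over all 17879 genes tested and a gene was called where the adjusted p fell below 0.05. Each standard error is the log2 fold change over the square root of F, and CPM are relative to the summed counts of the tested genes times the TMM factor. Alternatives were DESeq2 1.42.0, limma 3.58.1 (voom), DESeq2 size factors, other filters, counts thinned to equal totals, a replicate block, an assumed spread, removal of a length and GC trend (96.8% of tested genes had both values) and leaving out each library. The fits were tested on simulated counts. Gene models and transcripts came from GENCODE M21 on GRCm38, promoters from RefSeq on GRCm38.p6. The remodeler genes and gene lists were chosen with earlier results of these data known. Every remodeler gene is named, and from each companion list up to 4 called genes in each direction with the smallest p. Further genes of the TIP60-p400 assembly, Dpf1 and Adnp are named beside these.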

Additional observations from a re-analysis of the deposited data

How the results depend on the processing

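The rise of Smarca5 and the fall of Ell3 kept their direction and their call under all 13 alternatives, with log2 fold changes of Smarca5 from 1.64 to 1.74 and of Ell3 from -1.79 to -1.52 when single libraries were left out. The number of remodeler genes called higher, 6, came to 3 with DESeq2 and to 3 with the assumed coefficient of variation of 0.2, and lay between 3 and 7 when single libraries were left out, with the lowest number without Ell3 KD replicate 2. The number called lower, 9, came to 2 under the assumed coefficient of variation and lay between 7 and 10 without single libraries. Companion genes called numbered 1 higher and 1 lower (Actr5 and Mta2) under the assumed coefficient of variation, and 9 lower with DESeq2. Without single libraries they lay between 15 and 20 higher and between 9 and 16 lower, the lowest numbers of both being without Ell3 KD replicate 1. Deviations from the group mean, compared over genes between replicate 1 of Ell3 KD and replicate 1 of Ctrl, had a correlation of 0.0294. As it rests on 1 pair of libraries, it cannot show whether libraries of the same number share an animal or a batch. The fit with the replicate block called 5 remodeler genes higher and 9 lower, the call it ended being that of Smarcd3. Signs turned only among genes that did not pass the test. With the length and GC trend removed, log2 fold changes were 0.02 for Arid1a, 0.06 for Arid1b, 0.01 for Bptf, 0.03 for Chd4, 0.01 for Ino80d and -0.09 for Smarce1-ps1. Ino80d also gave 0.002 with DESeq2 size factors, 0.003 with DESeq2, 0.0008 with limma-voom, 0.01 without a filter and 0.02 with counts thinned to equal totals. The cause was not tested. Without single libraries, the ranges that crossed 0 were -0.06 to 0.16 for Smarce1, -0.14 to 0.11 for Arid1b, -0.20 to 0.03 for Arid2, -0.06 to 0.005 for Bptf, -0.003 to 0.06 for Chd7, -0.06 to 0.01 for Ino80b, -0.04 to 0.04 for Ino80d and -0.08 to 0.10 for Smarce1-ps1.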
